A study of Mus musculus with 42 samples.

Results

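Type II cadherins are a subfamily of the classical cadherins, the calcium-dependent adhesion receptors that hold neighboring cells together. Their positions relative to lamina-associated domains (LADs) in mouse liver were followed for 10 of these genes (Cdh6, Cdh7, Cdh8, Cdh9, Cdh10, Cdh11, Cdh12, Cdh18, Cdh19 and Cdh20), out of 21938 protein-coding genes placed on the mm10 chromosomes by GENCODE vM21. The 10 genes were listed by name. LADs are large chromatin domains bound by the nuclear lamina, the meshwork of lamins under the inner nuclear membrane. They had been mapped by chromatin immunoprecipitation sequencing (ChIP-seq) of lamin B1 (LMNB1) from whole liver.

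All mice were wild-type C57Bl/6, with no allele or transgene, and were kept in 12 h light and 12 h dark. The sources call them male in the protocol and female in a sample field, and give no age. Mice called non-synchronized (NS) were killed at noon, before any fast. The others went without chow for 24 h and were refed from circadian time CT0, with livers taken at CT0, CT6, CT12, CT18, CT24 and CT30. Each of these 7 groups had 2 LMNB1 ChIP-seq libraries, each from 1 mouse, hence 14 libraries in all, with replicates numbered as in the sample titles. For NS, CT0 and CT12 the deposited lists carry other replicate numbers than the titles, so the numbers only name the mice there. A piece of liver holds several cell types, and the LAD lists hold no expression values, so liver markers were not checked. In such tissue, fewer cells with a locus at the lamina and a weaker contact in each cell cannot be told apart.

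Classical cadherins join cells through their extracellular repeats, and their cytoplasmic tails bind catenins that connect to actin. Type II cadherins are best known from the nervous system, where combinations of them sort neurons and help to match synaptic partners. Several of their genes lie in gene deserts, long stretches with few other genes, which in many cell types are found at the nuclear lamina.

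Each library is a list of LAD start and end positions with no score or read count, so the sequencing depth behind a call is unknown and no counting interval can be given. The 14 libraries held 86 to 341 LADs covering 335 to 663 Mb. Between 4.02% and 10.4% of all protein-coding genes had their start site in a LAD, and 7 to 10 of the 10 cadherins did. The bin size used in calling, read here as the largest step in kb that all LAD starts of a library share, ranged from 4 to 61 kb. It differed between mice of the same group and sets how finely a border can be placed.

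The label of a gene desert was first set against the annotation. All protein-coding genes had a median of 30 other coding genes within 1 Mb of their bodies, whereas the 10 cadherins had 0 to 7. Cdh8, Cdh9, Cdh10 and Cdh11 had none, Cdh7 and Cdh18 had 1, and Cdh12 and Cdh19 had 2. Cdh20 had 5 and Cdh6 had 7, and of all coding genes 3.74% and 7.12% had as few. The label was therefore weakest for Cdh6, whose nearest neighbor Drosha, encoding the microRNA-processing nuclease, began 93.4 kb away, and for Cdh20, with Rnf152, a ubiquitin ligase gene, at 281 kb. The 10 bodies spanned 89.3 kb (Cdh19) to 1140 kb (Cdh12), against a median of 17.4 kb over all genes.

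The genes fell into 3 loci. On chromosome 15 lay Cdh6 (13028701-13173675, minus strand, ENSMUSG00000039385.5), Cdh9 (16728756-16857094, plus strand, ENSMUSG00000025370.7), Cdh10 (18818947-19014236, plus strand, ENSMUSG00000022321.15), Cdh12 (20449265-21589533, plus strand, ENSMUSG00000040452.9) and Cdh18 (22549022-23474418, plus strand, ENSMUSG00000040420.15). These 5 genes followed each other with no coding gene in the gaps between them, which measured 3555 kb, 1962 kb, 1435 kb and 959 kb from Cdh6 to Cdh18. Acot10, an acyl-CoA thioesterase gene, lay within the body of Cdh12. On chromosome 8 lay Cdh8 (99024471-99416471, minus strand, ENSMUSG00000036510.17) and Cdh11 (102632095-102785642, minus strand, ENSMUSG00000031673.6), separated by 3216 kb without another coding gene. On chromosome 1 lay Cdh20 (104768529-104995481, plus strand, ENSMUSG00000050840.8) and, further along, the pair Cdh7 (109982431-110140157, plus strand, ENSMUSG00000026312.17) and Cdh19 (110888326-110977584, minus strand, ENSMUSG00000047216.8), 748 kb apart.

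Promoter sequences are shown for 4 of the genes, of which Cdh8 and Cdh10 had their start site in a LAD in every library and Cdh6 and Cdh20 in a minority. They are the 250 bases before the RefSeq start (GRCm38.p6), 5′ to 3′ on the strand of the gene, with each CG dinucleotide in capitals. Cdh8 is at chr8:99416472-99416721 on the minus strand, Cdh10 at chr15:18820079-18820328 on the plus strand, Cdh6 at chr15:13173676-13173925 on the minus strand and Cdh20 at chr1:104768270-104768519 on the plus strand.
Cdh8: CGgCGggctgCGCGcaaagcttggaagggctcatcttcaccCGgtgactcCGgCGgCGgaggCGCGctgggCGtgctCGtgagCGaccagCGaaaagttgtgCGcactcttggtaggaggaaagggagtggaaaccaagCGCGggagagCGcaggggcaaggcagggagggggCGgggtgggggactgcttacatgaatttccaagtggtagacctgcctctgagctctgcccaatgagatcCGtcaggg
Cdh10: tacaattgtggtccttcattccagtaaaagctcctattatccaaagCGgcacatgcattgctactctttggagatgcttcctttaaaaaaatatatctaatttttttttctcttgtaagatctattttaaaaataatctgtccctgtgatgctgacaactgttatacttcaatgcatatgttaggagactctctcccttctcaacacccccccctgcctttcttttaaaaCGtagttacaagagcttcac
Cdh6: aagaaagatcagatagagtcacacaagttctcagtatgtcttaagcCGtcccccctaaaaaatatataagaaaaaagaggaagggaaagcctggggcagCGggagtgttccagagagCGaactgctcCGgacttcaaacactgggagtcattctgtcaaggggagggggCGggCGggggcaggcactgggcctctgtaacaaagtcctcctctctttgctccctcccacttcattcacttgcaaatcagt
Cdh20: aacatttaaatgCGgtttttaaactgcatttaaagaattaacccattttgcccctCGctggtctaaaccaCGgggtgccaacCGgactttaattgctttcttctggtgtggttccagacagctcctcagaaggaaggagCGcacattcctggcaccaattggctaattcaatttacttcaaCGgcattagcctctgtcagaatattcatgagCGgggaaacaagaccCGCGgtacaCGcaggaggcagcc
The promoters always in a LAD held both the most and the fewest CG dinucleotides of these 4 stretches, 20 for Cdh8 and 2 for Cdh10, with 6 for Cdh6 and 10 for Cdh20. RefSeq promoters of 300 bases, which add 50 bases after the start, were matched for 8 of the 10 genes (all but Cdh11 and Cdh19). They held 21 CG for Cdh8, 18 for both Cdh7 and Cdh20, 12 for Cdh18, 9 for Cdh12, 8 for both Cdh6 and Cdh9, and 2 for Cdh10, beside a median of 7 over 32851 promoters of that length. Among these promoters, only those of Cdh6 and Cdh20 belonged to genes not always in a LAD. A relation of promoter CG content to LAD position was not tested.

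In addition, 3 short motifs were searched on both strands of the 300 bases. The E-box CACGTG, the site of the CLOCK and BMAL1 heterodimer, was in 0 of the 8 promoters and in 7.15% of all promoters. The repeat GAGAGA was in 2 of the 8 (Cdh10 and Cdh18) and in 23.9% of all, and the TATA box TATAAA was in 0 of the 8 and in 13.6% of all. The RefSeq starts of Cdh12 and Cdh18 lay 662 kb and 487 kb inside the GENCODE gene, in stretches that were also in a LAD in every library.

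For the start site, 7 of the 10 cadherins were in a LAD in all 14 libraries, and the other 3 in some. Of all protein-coding genes, 0.83% (182 of 21938) had the start site in a LAD in every library and 15.8% in some, and of the 134 genes with at most 1 other coding gene within 1 Mb, 27.6% (37) did so in every library. The 134 include 6 of the 10 cadherins, whereas Cdh6, Cdh12, Cdh19 and Cdh20 have more neighbors and fall outside that class. The 7 cadherins in a LAD in every library were Cdh7, Cdh8, Cdh9, Cdh10, Cdh12, Cdh18 and Cdh19. Their whole bodies were also covered, with a gene body share of 100% ± 0 (SD, n = 14 libraries) for each, which 164 of all coding genes (0.748%) matched. Over the 140 pairs of a cadherin and a library, 116 start sites (82.9%) were in a LAD. Per library this held for 4.02% to 10.4% of all coding genes and 39.6% to 63.4% of the 134. The pairs are not independent, since genes of a locus shared LADs and each gene was counted in every library.

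**Figure D1:**
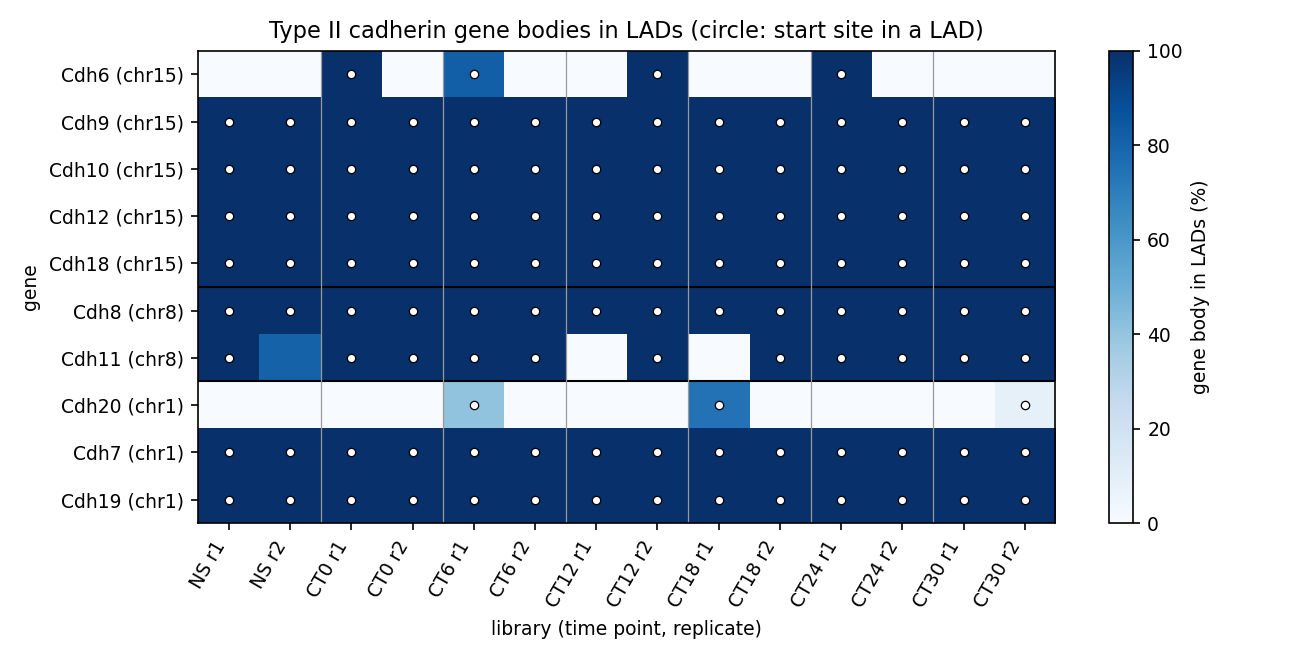
Share of each gene body in LADs (color, in percent) for the 10 type II cadherins (rows, by chromosome) in the 14 libraries (columns, r1 and r2 being the mice of a group). A circle marks a start site in a LAD. Cdh7, Cdh8, Cdh9, Cdh10, Cdh12, Cdh18 and Cdh19 are fully covered throughout, while Cdh6, Cdh11 and Cdh20 change from library to library.

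**Figure D2:**
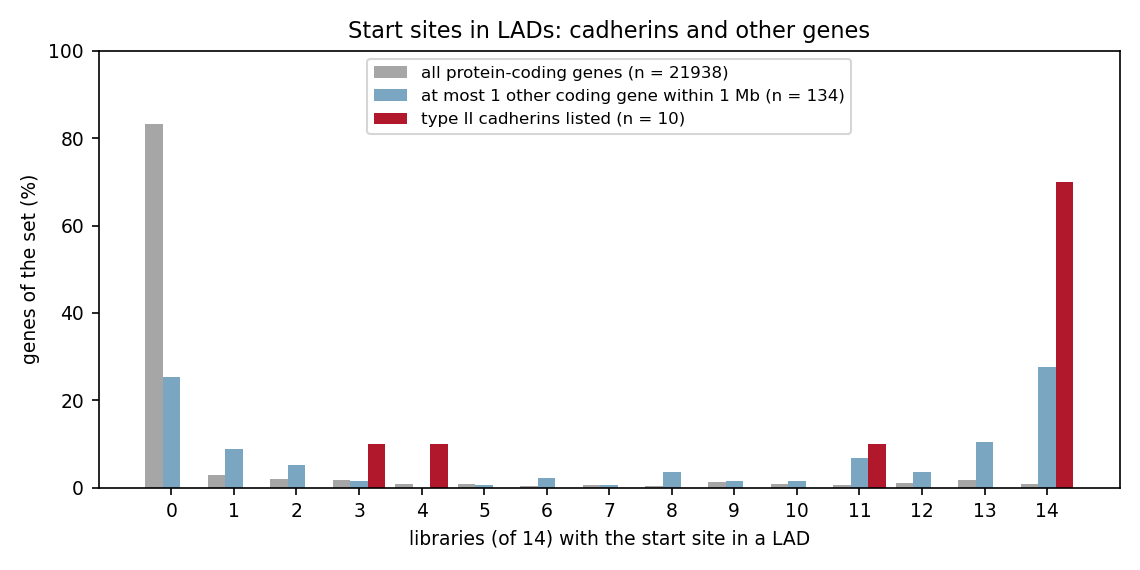
Percent of genes (vertical axis) by the number of libraries, of 14, in which the start site was in a LAD (horizontal axis). Bars are given for all 21938 protein-coding genes, for the 134 with at most 1 other coding gene within 1 Mb and for the 10 type II cadherins, of which 7 sit at 14 libraries and the others at 3, 4 and 11. The 134 include 6 of the 10 cadherins.

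Of the 2825 coding genes at least as long as Cdh19, 39 (1.38%) had the start site in a LAD in every library, against 0.83% of all coding genes. The part of gene length was not tested. Among the 10 cadherins, the longest (Cdh12) and the shortest (Cdh19) were both always in a LAD.

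The chromosome 15 genes are mainly neuronal. Cdh9 acts in synapse formation, and Cdh10, Cdh12 and Cdh18 are expressed in brain. In every library a single LAD, 11.1 to 12.6 Mb long, held all 4 of them. The start of Cdh10 lay deepest of the 10 genes, at 5033 to 6035 kb from the nearest LAD border (median 5498 kb). Cdh12 lay at 4121 to 4978 kb, Cdh9 at 2943 to 3945 kb and Cdh18 at 2021 to 2878 kb. The ranges of Cdh9 and Cdh18 did not overlap with those of Cdh10 and Cdh12. In every library the nearest border was the low one for Cdh9 and Cdh10, and the high one for Cdh12 and Cdh18. Since the LAD was shared, the greater depth of Cdh10 than Cdh9, and of Cdh12 than Cdh18, followed from the gene positions. It is therefore not a separate observation on lamina contact.

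The stretch of chromosome 15 covered in all 14 libraries ran from 13786001 to 24570000, 10.8 Mb. It was the longest of 53 such common segments, which had a median length of 2.23 Mb and totaled 150 Mb. Member bodies made up 22.2% of it. Only 5 coding start sites lay in it, those of Cdh9, Cdh10, Cdh12, Cdh18 and Acot10, or 0.464 per Mb against 1.21 per Mb over all common segments. The nearest gene beyond Cdh18 was Basp1, encoding a membrane protein of nerve growth cones, 1889 kb away, and its start was in a LAD in 1 of the 14 libraries.

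On chromosome 8, Cdh8, which acts in sensory circuits, was likewise inside 1 LAD in every library, with its start 2356 to 3502 kb from the border (median 3168 kb). The segment common to all libraries (97060001 to 102485000, 5.42 Mb) ranked seventh in length and contained 1 coding start site, that of Cdh8 itself. Its nearest coding gene on the low side, Got2 (mitochondrial aspartate aminotransferase), was 3136 kb away and in a LAD in no library.

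On chromosome 1, Cdh7, expressed in neural crest and motor neurons, and Cdh19, a marker of Schwann cell precursors, shared 1 LAD in every library. The Cdh7 start was 1406 to 2000 kb from the border in 13 libraries, and 487 kb in NS replicate 1. The Cdh19 start was 1483 to 2996 kb from the border, and its lowest value also came from NS replicate 1. The common segment (109495001 to 117774000, 8.28 Mb) was the second longest and held 6 coding start sites, those of Cdh7, Cdh19, Dsel, Cntnap5a, Gm19965 and Gm28363. Dsel, an epimerase gene of dermatan sulfate synthesis, is the high-side neighbor of Cdh19, and its start was in a LAD in 14 of 14 libraries. On the low side of Cdh7, Serpinb8, a serine protease inhibitor gene 2372 kb away, was in a LAD in none.

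**Figure D3:**
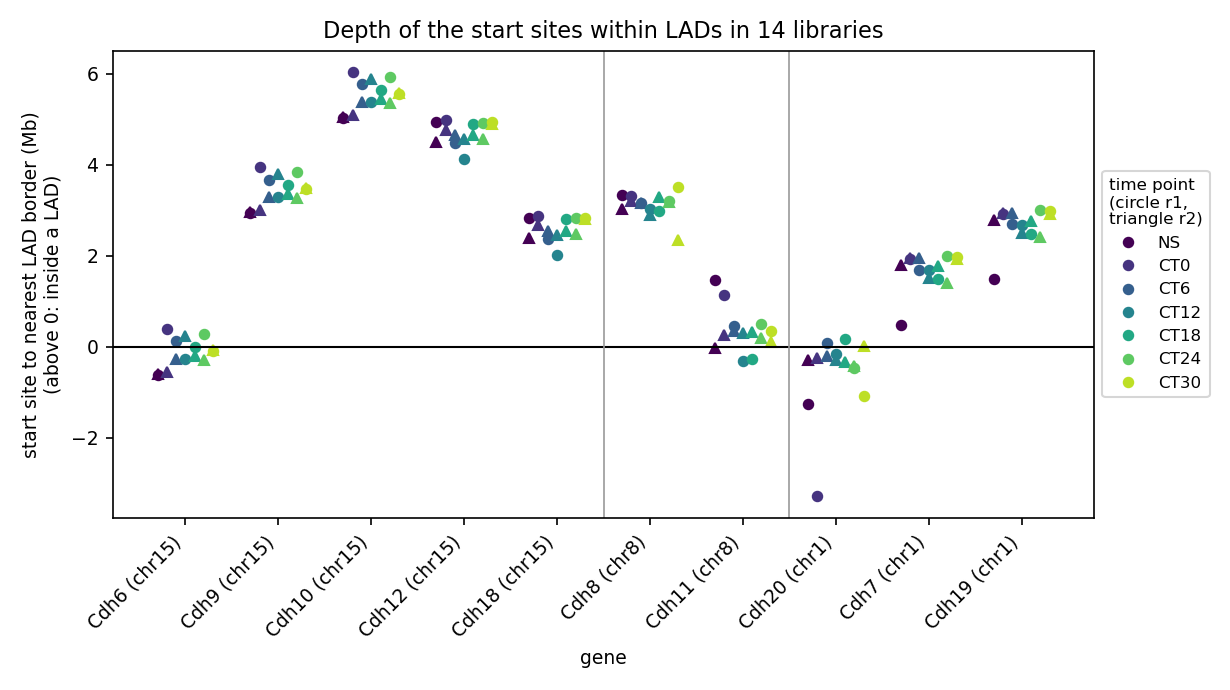
Distance in Mb from each start site to the nearest LAD border in the 14 libraries (above 0, inside a LAD; below 0, outside), with circles for replicate 1, triangles for replicate 2 and colors for the groups. Cdh10 is deepest at 5033 to 6035 kb, and the points of Cdh6, Cdh11 and Cdh20 fall on both sides of 0.

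The 3 other genes were crossed by LAD borders in some libraries. For Cdh6 and Cdh11, the outermost genes of their loci, it was the border of the LAD that held the other cadherins of the locus, and for Cdh20 that of a separate LAD on its low side. Cdh6, a cadherin of kidney epithelium and of several cancers, ends the chromosome 15 cluster on its low side. Its start was in a LAD in 4 of 14 libraries. The share of its body in LADs was 100% in CT0 replicate 1, CT12 replicate 2 and CT24 replicate 1, 81.9% in CT6 replicate 1 and 0% in the other 10. In no group were both mice inside, so the 4 libraries came from 4 different time points.

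Outside LADs, the distance from Cdh6 to the nearest LAD was 612 kb and 590 kb in the NS mice and 558 kb in CT0 replicate 2. It was 268 kb in CT6 replicate 2, 271 kb in CT12 replicate 1, 290 kb in CT24 replicate 2, and 12.3 kb and 200 kb at CT18. At CT30 it was 94.3 kb and 74.3 kb. Thus the gene was out of LADs in both mice at NS, CT18 and CT30, and among these it was farthest in the NS mice. The mean share was 27.3% ± 45 (SD, n = 14).

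The libraries with Cdh6 inside had bin sizes of 47, 35, 10 and 14 kb and covered 424, 495, 586 and 631 Mb, against 4 to 61 kb and 335 to 663 Mb over all libraries. Their part in the result was not tested. The neighbor Drosha, on the outer side of Cdh6, had its start in a LAD in 1 library and a mean share of 10.2%.

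Cdh11, or OB-cadherin, is expressed by osteoblasts and other mesenchymal cells. It ends the chromosome 8 locus on the high side, and its start was in a LAD in 11 of 14 libraries. Its body share was 100% in those 11, 80.7% in NS replicate 2 and 0% in CT12 replicate 1 and CT18 replicate 1, which gave 84.3% ± 36.1 (SD, n = 14). In these last libraries the gene lay 147 kb and 108 kb from the LAD. The start was inside in both mice at CT0, CT6, CT24 and CT30, and the mice differed at NS, CT12 and CT18.

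When inside, the Cdh11 start was 116 to 1463 kb from the border, and the widest margins were in NS replicate 1 (1463 kb) and CT0 replicate 1 (1131 kb). These had the coarsest bins, at 61 and 47 kb, and covered 335 and 424 Mb. The narrowest margin, 116 kb, was in CT30 replicate 2, which had the next coarsest bins, at 46 kb, and covered 392 Mb. The 3 libraries with the start outside had bins of 4, 5 and 19 kb and covered 527, 553 and 618 Mb. Their part in the result was not tested. The next gene, Cdh5, which encodes VE-cadherin of endothelial junctions, was 1316 kb farther out, and its start was in a LAD in 1 library, NS replicate 1.

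Cdh20, a cadherin of the developing nervous system, stands alone on chromosome 1, 4283 kb from its low-side neighbor Cntnap5b. Its start was in a LAD in 3 of 14 libraries, with body shares of 74.2% in CT18 replicate 1, 40.3% in CT6 replicate 1 and 8.58% in CT30 replicate 2, and 0% in the other 11. The mean share was 8.79% ± 21.7 (SD, n = 14). In no group were both mice inside, and in no library was the whole gene covered.

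In the 11 libraries without contact, Cdh20 was 149 to 3058 kb from the nearest LAD. Those values were 1252 and 285 kb at NS, 3058 and 248.5 kb at CT0, 203 kb in CT6 replicate 2, 149 and 299 kb at CT12, 339 kb in CT18 replicate 2, 455 and 423 kb at CT24 and 1074 kb in CT30 replicate 1. The mice of CT0 were the farthest apart, since in replicate 1 the nearest LAD lay on the other, high side of the gene. The libraries with contact had bins of 19, 35 and 46 kb and covered 618, 495 and 392 Mb, and their part in the result was not tested. Cntnap5b, of the neurexin superfamily, had its start in a LAD in 10 libraries, and Rnf152 on the opposite side in none.

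**Figure D4:**
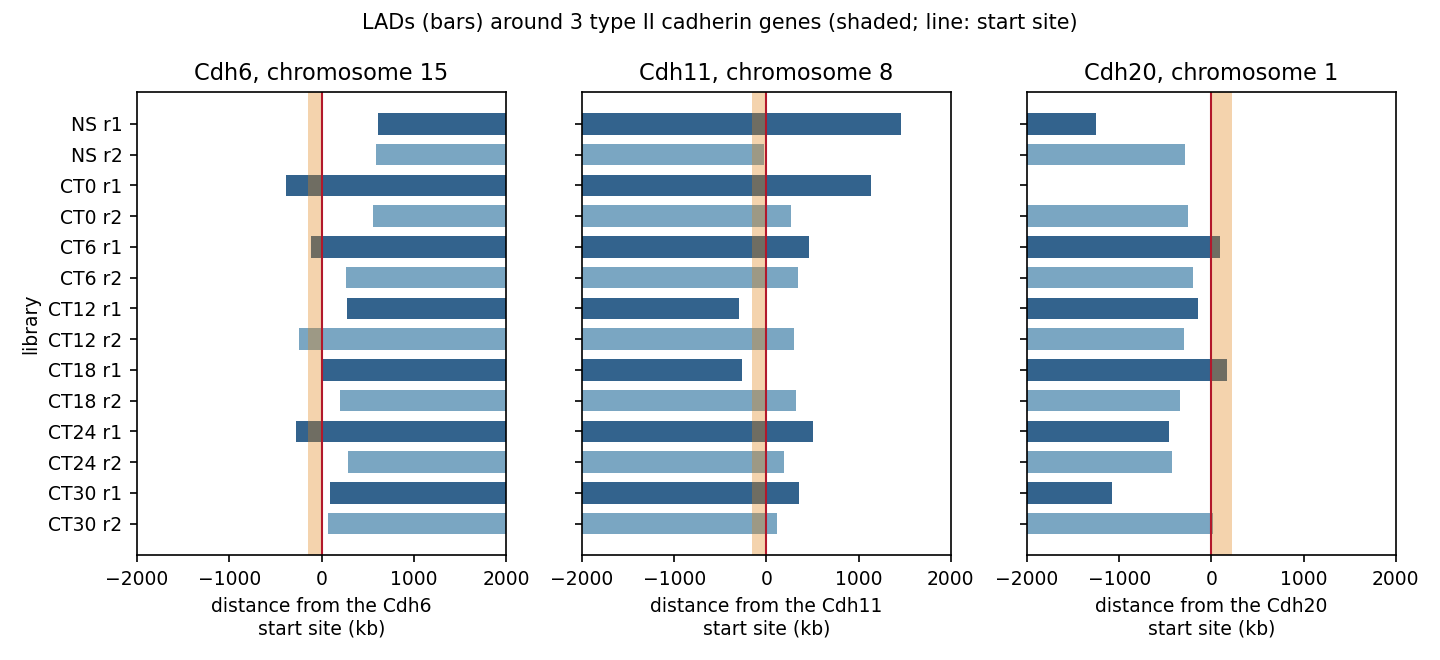
LADs (bars, dark for replicate 1 and light for replicate 2) within 2000 kb of the start sites of Cdh6, Cdh11 and Cdh20 in the 14 libraries, along the chromosome in kb from the start site (line), with the gene body shaded. Borders reach past the start site in 4 libraries for Cdh6, 11 for Cdh11 and 3 for Cdh20.

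Ordered by mean share, Cdh11 followed the 7 constant genes, then Cdh6 and Cdh20. Cdh11 lay within 1 SD of the constant genes, and Cdh6 and Cdh20 within 1 SD of each other. At 10 of the 21 combinations of these 3 genes and a group (47.6%), 1 mouse had the start in a LAD and the other did not. The same figure over all genes that varied was 30.0% (7291 of 24297). These include 647 genes with the start in a LAD in 1 library and 413 in 13, where only 1 group can differ. The cadherins were at 3, 4 and 11 libraries, so the percentages are not like for like.

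The borders at these loci varied between mice. The low border on chromosome 15, at Cdh6, ranged over 1002 kb (SD 323 kb), from 12784001 in CT0 replicate 1 to 13786001 in NS replicate 1, and the mice of a group differed by a median of 387 kb. The high border on chromosome 8, at Cdh11, ranged over 1764 kb (SD 474 kb), with a median difference of 586 kb. The opposite borders of the same LADs differed by medians of 248 kb on chromosome 15 and 145 kb on chromosome 8. On chromosome 1 the LAD on the low side of Cdh20 ended between 103517000 and 104937000 in 13 libraries, whereas in CT0 replicate 1 no LAD came nearer on that side than one ending at 50008000. The low border of the LAD of Cdh7 and Cdh19, which began beyond Cdh20 in all libraries, ranged over 1513 kb, of which 1303 kb separated the NS mice, whereas its high border ranged over 522 kb, with a median difference of 30 kb.

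To ask whether the position of the genes changed with circadian time, shares and distances were compared between the 6 CTs with an exact permutation test that enumerated the 10395 ways of splitting the 12 libraries into pairs. P-values were Benjamini-Hochberg adjusted over all genes that varied. Of 3306 genes with a varying body share, 0% passed an adjusted p of 0.05, and 1.39% (46) had an unadjusted p under 0.05. The smallest exact permutation p of the design was 9.62e-05, too large for any 1 gene to pass the adjustment alone. The 7 constant cadherins had nothing to test. For Cdh6, Cdh11 and Cdh20 the F ratio between CTs was 0.41, 0.80 and 0.78, with exact permutation p = 1 for each. With so many tied values, the smallest p that any arrangement could give was 0.0303 for Cdh6 and 0.0909 for Cdh11 and Cdh20, so the latter pair could not have passed the threshold. The same limit left 26.2% (865) of the 3306 genes able to reach an unadjusted p under 0.05.

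For the distance to the nearest LAD, taken as log10 of kb plus 1, 20370 genes varied. Again 0% passed after adjustment, and 5.44% (1109) did before it. As for the share, no gene could have passed the adjustment alone. Cdh6 and Cdh11 had F ratios of 0.082 and 0.80 with exact permutation p = 1. Cdh20 had an F ratio of 0.625 with exact permutation p = 0.643, adjusted p = 0.944. The smallest p their distances allowed was 0.000289 for both Cdh6 and Cdh20 and again 0.0909 for Cdh11. A change of Cdh11 over the CTs, or of the share of Cdh20, was therefore not detectable in this design, and for Cdh6 and the distance of Cdh20 the difference between CTs did not exceed that between mice.

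Entrainment was addressed by setting NS against CT0, where 2 mice against 2 cannot give a p below 0.333. The NS mice were killed at noon before the fast, whereas CT0 was early morning at its end. Feeding state and hour of day therefore cannot be told apart from entrainment. The 7 constant genes were at 100% in all 4 libraries. Cdh6 was at 0% ± 0 in NS and 50.0% ± 70.7 in CT0 (SD, n = 2 each, exact two-sided permutation p = 1), its CT0 mice being at 100% and 0%. Cdh11 was at 90.3% ± 13.7 in NS and 100% ± 0 in CT0 (exact permutation p = 1). Cdh20 was out of LADs in all 4, at a mean distance of 768 ± 684 kb in NS and 1653 ± 1986 kb in CT0 (SD, n = 2). Each of these differences was below the SD of the more variable group but above that of the other group, with n = 2 in each.

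Where only the bases covered in both mice of a group were counted, as in a replicate intersect, Cdh6 and Cdh20 had a share of 0% in every group. Cdh11 had 100% at CT0, CT6, CT24 and CT30, 80.7% at NS and 0% at CT12 and CT18. The distance from Cdh6 to this intersect was 612 kb at NS, 558 kb at CT0 and 94.3 kb at CT30.

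Other cadherins and their partners were placed in the same way. Of the 5 type I cadherins (Cdh1, Cdh2, Cdh3, Cdh4 and Cdh15), 0 had the start in a LAD in every library. Cdh1, encoding E-cadherin of hepatocyte and other epithelial junctions, lay 2354 to 4118 kb from the nearest LAD. Cdh2, encoding N-cadherin, had its start in a LAD in 1 library, with a mean share of 0.494%.

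Of the 3 other type II cadherins, 0 were in a LAD in every library. Cdh5 was in 1, and Cdh22 and Cdh24, with 65 and 57 other coding genes within 1 Mb, in none. Of 5 further cadherins (Cdh13, Cdh16, Cdh17, Cdh23 and Cdh26), 0 had the start in a LAD in any library. Cdh13, or T-cadherin, which lacks a cytoplasmic tail, is 1041 kb long and lay 4786 to 15799 kb from the nearest LAD.

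Of 7 catenin genes, 0 had the start in a LAD in every library. Ctnnb1, encoding beta-catenin, lay 15549 to 90063 kb away. Ctnna2, encoding the neuronal alpha-catenin, had its start in a LAD in 13 of 14 libraries with a mean share of 93.1%, and Ctnnd2, encoding the neuronal delta-catenin, in 5 with 19.1%. Ctnna3 had its start in none, yet a mean of 54.4% of its 1574 kb body was in LADs.

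Genes on other chromosomes whose body shares were nearest to those of the varying cadherins were sought over the 14 libraries, by the mean absolute difference in share. For Cdh6 these were Zfp202 and Scn3b, both on chromosome 9, at 5.85 percentage points each, and both had the same start state as Cdh6 in 13 of 14 libraries. For Cdh11 they were Sorcs1 on chromosome 19 at 10.9 points and Gm9972 on chromosome 11 at 12.9 points. The Sorcs1 start was in a LAD in all 14 libraries, and so matched the start state of Cdh11 in 11. Gm9972 matched it in 13. For Cdh20 they were Phip on chromosome 9 at 2.97 points and Cep128 on chromosome 12 at 3.68 points. The starts of both were in a LAD in 0 libraries, and so matched that of Cdh20 only in the 11 where it was outside. All libraries share the calling method and differ in coverage, so this likeness is a description only.

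The base composition of the bodies was read from the genome. GC content was 34.7% for Cdh19, 35.1% for Cdh7, 35.3% for Cdh9, 36.5% for each of Cdh12 and Cdh18, 36.6% for Cdh10 and 36.7% for Cdh8. The genes crossed by borders were higher, with 39.4% for Cdh20, 39.5% for Cdh11 and 41.9% for Cdh6. The 2 sets did not overlap. All 10 were below the median of all coding genes, 45.2%, and the genes with the start in a LAD in every library had a median of 36.7%.

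Low GC content went with high LAD coverage over all genes. The 325 genes with 33% to 35% GC had a mean share of 62.3%, the 856 with 35% to 37% had 40.3%, and the 2326 with 39% to 41% had 9.61%. The 7 constant cadherins, at the highest possible share of 100%, could only lie above the mean of their class. The start was in a LAD in every library for 6.77% of genes with 33% to 35% GC and 7.71% with 35% to 37%. Cdh11 at 84.3% and Cdh20 at 8.79% came from the same GC class and lay on either side of its mean, and Cdh6 at 27.3% was above the 8.37% of its class. Base composition can also affect the mapping of reads, and its part in the LAD calls was not tested.

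**Figure D5:**
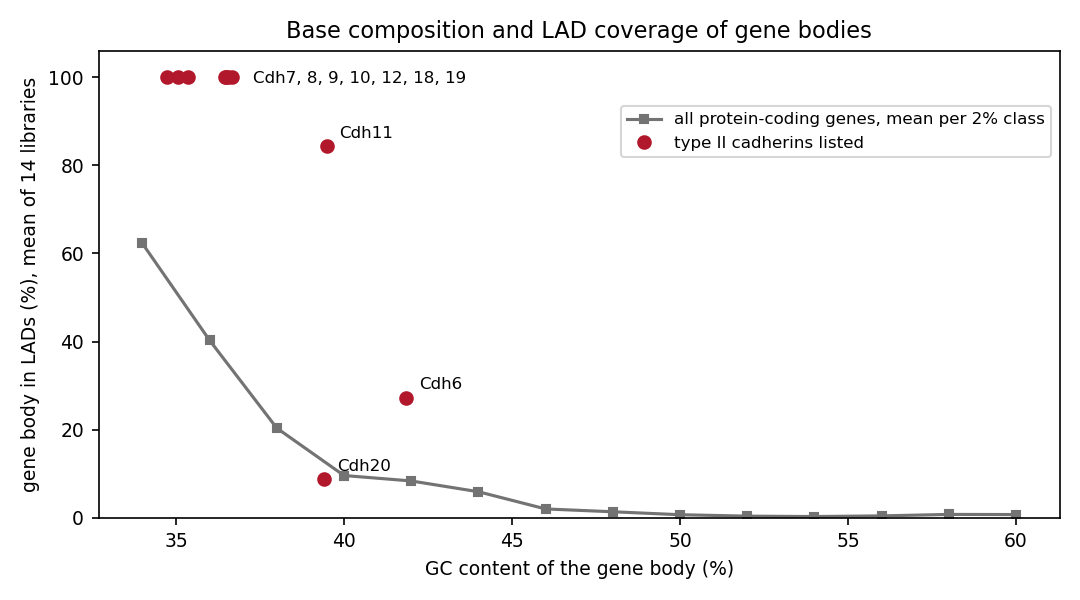
Mean share of the gene body in LADs over the 14 libraries (percent) against GC content of the body (percent) for the 10 type II cadherins (red) and as means over all protein-coding genes in classes 2 percentage points wide (gray line). The 7 constant genes sit at 100% between 34.7% and 36.7% GC, and Cdh20 lies beside the line.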

How the data were processed

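LMNB1 ChIP-seq LADs were analysed for 14 libraries. The authors deposited LAD start and end positions per mouse (mm10), with no score, count or fold. According to their methods, reads were aligned with Bowtie, duplicates were removed with Picard, ChIP and input were down-sampled to the same depth, and LADs were called with Enriched Domain Detector (EDD). The 7 input and 21 RNA-seq samples were not analysed here.

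Genes were taken from GENCODE vM21 without the mitochondrial chromosome. Per library, the start site in a LAD, the share of the gene body in LADs and the distance to the nearest LAD were computed with Python 3.11.15, NumPy 2.4.6 and SciPy 1.17.1. The permutation test was tested on simulated data. No LAD ended beyond its chromosome.

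The members and lists were chosen with earlier results of these data known. Genes named were all members, their nearest coding neighbors, and for each list up to 4 examples on either side of the split. For members whose share had an SD of at least 0.1 (as a fraction), the 2 closest genes on other chromosomes were named. Alternatives left out libraries or changed the LAD list, the gene start, the filter, the scale or the replicate block. P-values measure the spread between mice only.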

Additional observations from a re-analysis of the deposited data

How the results depend on the processing

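The 7 cadherins with the start site in a LAD in every library remained 7 with LADs of at least 1 Mb, with gaps of up to 100 kb closed, with the start at least 100 kb inside a LAD, with the start of the longest coding transcript, and without each library in turn. These settings could not lower that count. The 7 starts lay at least 487 kb inside LADs of at least 5.84 Mb, and the bodies were covered throughout. Leaving out a library cannot remove a gene that was in a LAD in all of them. The share of start sites in LADs stayed at 81.4% to 83.8%. No gene passed the adjusted threshold between CTs in any alternative, and none could have passed it alone. The percent of genes with an unadjusted p under 0.05 for the body share was 0.891 with LADs of at least 1 Mb, 0.363 with the replicate block and 1.27 to 4.15 without each library in turn (highest without CT6 replicate 2). For the distance it was 9.83 with LADs of at least 1 Mb and 3.14 to 11.7 without each library (lowest without CT12 replicate 1, highest without CT0 replicate 2), and 5.20 with the block. Leaving out either mouse of CT0, CT6 or CT18, CT12 replicate 1 or CT24 replicate 2 raised the former by over 1.5 times, and leaving out either mouse of CT12 or CT30 replicate 1 lowered the latter by over 1.5 times. The cause was not tested. The replicate numbers are those of the sample titles, and those on the deposited lists differ for NS, CT0 and CT12. No source says that a number pairs mice, and over the 15 pairs of CTs, the correlation of deviations between same-numbered mice had a median of 0.0569, and 3 were over 0.1. The exact permutation p under the block was 0.719 for the Cdh20 distance and 1 for the other tests of Cdh6, Cdh11 and Cdh20. Without each library these p ranged from 0.182 to 1. With all libraries, the smallest exact permutation p that ties allowed was 0.0909 for Cdh11 and for the share of Cdh20. Those tests could not pass the threshold, so their p-values say nothing on a change over the CTs. The CT0 minus NS difference of Cdh6, 50.0 percentage points with and without the block, was 0 in the intersect of mice and 0 to 100 without each library, being 0 without CT0 replicate 1. That of Cdh11, 9.65 points with and without the block, was 0 to 19.3, being 0 without NS replicate 2. Depth is unknown, so no limit of detection can be given.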
